A study of Mus musculus with 4 samples.

Results

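The genes described here encode the respiratory chain and ATP synthase of mitochondria, the machinery of oxidative phosphorylation. They were taken by symbol from the table of normalised counts: every row starting with Ndufa, Ndufb, Ndufc, Ndufs, Ndufv, Uqcr, Uqcc, Atp5 or Cox followed by a digit, with Sdha to Sdhd, Cyc1 and Cycs. The rule found 94 of 10598 genes. Of these, 36 are structural subunits of complex I, 4 of complex II, 9 of complex III, 15 of complex IV and 15 of complex V. Cytochrome c (Cycs) and 13 assembly factors were also matched. The last match, Cox4nb, is named for its place beside Cox4i1 and encodes a protein of the endoplasmic reticulum membrane, not a respiratory subunit. Ndufa4 was counted with complex IV, where its protein resides.

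RNA had been sequenced from thymus of C57BL/6J mice in 4 groups, each with 1 library. These were wild type and Camk2g knockout (CAMKIIgamma-/-, lacking the gamma subunit of calcium/calmodulin-dependent kinase II), given either N-methyl-N-nitrosourea (MNU) or vehicle, the latter called without MNU below. MNU, an alkylating mutagen that induces T-cell lymphoma in mice, had been given by the intraperitoneal route at 75 mg/kg, as a single dose at 4 to 5 weeks of age. The labels give 6 months for both MNU and vehicle. The study's design calls the thymus with MNU malignant and asks how loss of the kinase suppresses this lymphoma. The labels do not say how many animals stood behind a library, nor for each sample whether a tumour was seen. With 1 library per group there is no replicate spread, so the differences below describe these libraries and none has a replicate check or a p-value.

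Electrons from NADH enter the chain at complex I and those from succinate at complex II. Complex III passes them from ubiquinol to cytochrome c, complex IV passes them to oxygen, and complex V (ATP synthase) makes ATP from the proton gradient. Most subunits are nuclear genes, and some subunits of complex IV exist as a general form and a form of muscle, brown fat or testis. The 13 subunits encoded by mitochondrial DNA were not analysed here.

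All 94 genes passed the filter on low values, a mean of at least 10 normalised counts. Camk2g itself stood at 2749 and 3173 in the wild-type libraries without and with MNU, and at 489 and 29.7 in those of the knockout. The knockout library without MNU thus stood apart from the one with MNU in the gene that checks its label. Over 42 genes nearly specific to the wild-type MNU thymus, its excess over the mean of the 2 remaining libraries was a median of 15.4% of the excess there. Whether that library holds RNA of the wild-type MNU sample was not tested; if it does, all its values are a mixture. The medians over the 94 genes that rest on it are also given with this share subtracted. All 16 thymic epithelial markers were lower in wild type with MNU, where they summed to 2828 normalised counts against 113239 without MNU, and Foxn1, which defines this epithelium, was listed at 0. All 16 thymocyte markers were measured in every library, with sums of 626860 and 306141 in wild type without and with MNU, and 447845 and 553354 in knockout. Markers of other cell types differed in direction. Fibroblast, macrophage and neutrophil markers summed higher in wild type with MNU than without. In the same order, fibroblast markers (7 of 8 measured) summed to 19745, 59144, 30379 and 17081. Macrophage markers (12 of 14) summed to 32176, 61068, 52005 and 62507, and neutrophil markers (6 of 8) to 1616, 4802, 2612 and 3233. B cell and erythroid markers summed lower there. B cell markers summed to 12469, 3178, 26375 and 36469, and erythroid markers to 59419, 36456, 20136 and 42920. Adipocyte markers, given below, were lower as well. The part of this cell makeup in the values below was not tested. In bulk tissue, fewer cells of a type and less RNA per cell cannot be told apart.

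The regulatory sequences of the genes on which the results turn are shown first. The muscle and brown fat forms Cox7a1 and Cox8b differed most between libraries, and Cox7a2 and Cox8a are their general forms, so the 250 bases before the start of each are set side by side, 5′ to 3′. CG dinucleotides are in capitals. The sequences are those of RefSeq on build GRCm38.p6, Cox7a1 at chr7:30183921-30184170, plus strand, Cox7a2 at chr9:79759854-79760103, minus strand, Cox8b at chr7:140900447-140900696, minus strand and Cox8a at chr19:7217617-7217866, minus strand.
Cox7a1: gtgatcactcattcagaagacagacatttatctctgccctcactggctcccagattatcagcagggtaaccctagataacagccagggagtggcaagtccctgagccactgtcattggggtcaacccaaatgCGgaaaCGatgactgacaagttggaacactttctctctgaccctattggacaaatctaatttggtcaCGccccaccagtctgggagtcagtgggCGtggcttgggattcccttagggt
Cox7a2: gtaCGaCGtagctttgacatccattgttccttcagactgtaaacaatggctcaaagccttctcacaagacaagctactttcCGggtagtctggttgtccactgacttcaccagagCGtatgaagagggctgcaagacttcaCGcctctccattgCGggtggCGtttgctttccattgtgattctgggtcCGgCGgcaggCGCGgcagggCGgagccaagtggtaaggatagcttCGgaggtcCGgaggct
Cox8b: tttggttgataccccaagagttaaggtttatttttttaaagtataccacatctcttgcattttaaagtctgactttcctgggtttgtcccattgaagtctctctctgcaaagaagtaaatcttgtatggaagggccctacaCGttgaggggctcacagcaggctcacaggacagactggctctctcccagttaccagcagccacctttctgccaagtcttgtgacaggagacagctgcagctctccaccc
Cox8a: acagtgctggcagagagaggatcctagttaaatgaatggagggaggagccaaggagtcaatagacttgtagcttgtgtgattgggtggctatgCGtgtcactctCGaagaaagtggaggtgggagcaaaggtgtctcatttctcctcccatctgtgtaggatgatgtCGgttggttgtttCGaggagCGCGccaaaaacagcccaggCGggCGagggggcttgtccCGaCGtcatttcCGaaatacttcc
Cox7a1 held 4 CG dinucleotides in this stretch and Cox7a2 held 14. Cox8b held 1 and Cox8a 11. The median over the promoters of all genes kept was 16. Low counts also occurred elsewhere in the set: Ndufc2 held 4, and Uqcr10, Cox7b and Uqcc held 5 each. With MNU in wild type, Ndufc2 went from 2206 to 2883, Uqcr10 from 2255 to 2892 and Cox7b from 2791 to 3071. Uqcc went from 1166 to 1092.

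The c-ring of ATP synthase, the rotor that proton flow turns, is encoded by Atp5g1, Atp5g2 and Atp5g3, all 3 of them higher in wild type with MNU. Their stretches are shown in the same way, at chr11:96075632-96075881, minus strand, chr15:102671048-102671297, minus strand and chr2:73911327-73911576, minus strand. Capitals mark the NRF1 motif, a palindrome of GC letters around a variable centre, in Atp5g2 and the E-box CACGTG in Atp5g1 and Atp5g3. The Atp5g3 window also held an NRF1 match, not wholly within the stretch printed.
Atp5g1: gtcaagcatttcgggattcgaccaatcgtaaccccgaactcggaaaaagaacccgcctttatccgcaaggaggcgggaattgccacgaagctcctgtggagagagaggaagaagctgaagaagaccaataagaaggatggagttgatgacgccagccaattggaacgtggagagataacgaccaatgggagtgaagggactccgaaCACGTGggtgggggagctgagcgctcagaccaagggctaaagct
Atp5g2: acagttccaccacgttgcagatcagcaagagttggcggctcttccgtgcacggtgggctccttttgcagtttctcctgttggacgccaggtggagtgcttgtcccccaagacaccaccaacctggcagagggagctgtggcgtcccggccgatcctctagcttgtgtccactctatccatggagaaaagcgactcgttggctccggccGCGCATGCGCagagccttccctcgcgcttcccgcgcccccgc
Atp5g3: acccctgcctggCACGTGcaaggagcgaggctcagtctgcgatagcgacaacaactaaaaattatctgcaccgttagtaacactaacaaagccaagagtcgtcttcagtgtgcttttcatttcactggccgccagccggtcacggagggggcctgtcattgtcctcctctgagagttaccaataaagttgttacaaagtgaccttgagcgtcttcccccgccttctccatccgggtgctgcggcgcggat
NRF1 is a factor known to drive nuclear genes of the respiratory chain, and E-boxes are bound by MYC among other factors.

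Promoter windows of 300 bases, 250 before and 50 after the start, were matched for 79 of the 94 genes (86 windows). They were searched on both strands for 5 motifs. The NRF1 motif was in 22.1% of these windows, against 10.3% of 10497 windows of the genes kept and 4.60% of all 32851 windows. The YY1 motif AANATGGCG was in 15.1%, against 5.45% and 2.38%. The ETS motif CCGGAAG, read by GABPA, was in 24.4%, against 18.9% and 8.86%. The E-box CACGTG was in 10.5%, against 10.1% and 7.15%, and the TATA box TATAAA in 9.30%, against 7.41% and 13.6%. Overlapping matches of different motifs were each counted. These are matches of letters, not measured binding, and when only the 250 bases before the start were searched the YY1 share was 4.65%, against 2.24% of the genes kept and 1.12% of all windows.

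In wild-type mice, most oxidative phosphorylation genes were slightly higher with MNU. Cox7a1 and Cox8b, muscle and brown fat forms of complex IV subunits, were almost absent in the wild-type library with MNU. Of the 94 genes 67 were higher and 27 lower, where 49.7% of all 10587 genes were higher and 50.3% lower. The median log2 difference, taken on log2(normalised count + 10), was 0.17, against -0.01 over all genes. At a 2-fold difference 0 genes were higher (7.14% of all genes) and 2 lower (14.2%), Cox7a1 and Cox8b. At 1.5-fold 10 were higher (17.2%) and 2 lower (22.7%), so at each of these thresholds the share of the 94 genes was below that of all genes. Differences were thus mostly small and shared by many genes.

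**Figure D1:**
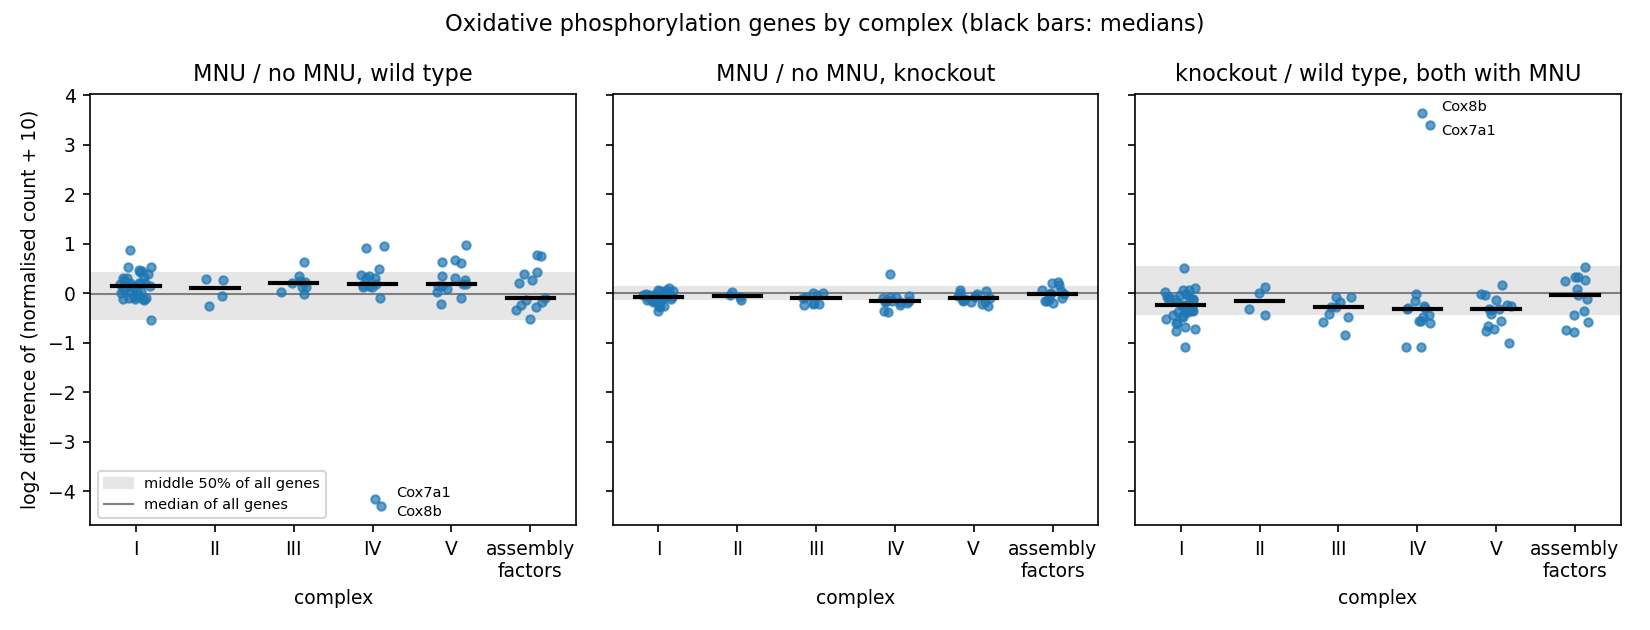
Log2 difference of (normalised count + 10) for each gene (points) in complexes I to V and the assembly factors, with MNU against without in wild type (left) and knockout (middle), and knockout against wild type with MNU (right). Black bars are group medians and the grey band holds the middle 50% of all genes; nearly all points lie near that band, with Cox7a1 and Cox8b far outside it in the left and right panels.

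Complex I, which takes electrons from NADH, had 25 of 36 structural subunits higher with MNU in wild type, with a median log2 difference of 0.14. Among its core subunits, which carry the flavin and the iron-sulphur clusters, 6 of 7 were higher, with a median of 0.20. Ndufb9, an accessory subunit of the membrane arm, stood at 3126 and 5705 in wild type without and with MNU, and at 3476 and 2700 in knockout without and with it. Wild type with MNU was the high library, 1.83-fold above wild type without. Ndufb8, also of the membrane arm, followed at 2631, 3792, 2625 and 2362 in the same order. At the other end, the membrane-arm gene Ndufb2 stood at 1019, 701, 961 and 1002, so that wild type with MNU was the low library, 1.45-fold below. Ndufb11 had the next lowest value, with a log2 difference of -0.13. Ndufa genes had a median of 0.12 (9 of 13 higher), Ndufb genes 0.12 (6 of 10), Ndufs genes 0.11 (5 of 8), Ndufv genes 0.30 (3 of 3) and the Ndufc genes 0.20 (2 of 2).

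Complex II, the succinate dehydrogenase that also serves the citric acid cycle, was divided. Sdha, the flavoprotein that oxidises succinate, stood at 11133, 9266, 10315 and 10090 in wild type without and with MNU and knockout without and with MNU. It was lowest in wild type with MNU. Sdhb, the iron-sulphur subunit, stood at 4481, 5413, 4601 and 4354, and the membrane anchor Sdhd at 3941, 4849, 3923 and 3571, both highest in wild type with MNU. The other anchor, Sdhc, stood at 3746, 3625, 3577 and 3622. The 4 genes together summed to 23301 without and 23153 with MNU in wild type, and without Sdha the log2 ratio of these sums changed from -0.01 to 0.19.

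Complex III, the cytochrome bc1 complex, had 8 of 9 subunits higher with MNU in wild type (median 0.21). Cyc1, the cytochrome c1 that hands electrons to cytochrome c, stood at 5244, 8099, 5232 and 4533 in the same library order, 1.54-fold above in wild type with MNU. The small subunit Uqcr10 stood at 2255, 2892, 2272 and 1937. Uqcrb, which binds near the ubiquinone site, stood at 1631, 1624, 1537 and 1545, and Uqcrh, which sits beside Cyc1, at 4905, 5001, 4865 and 4728. Those last values lay close together in all 4 libraries. Cycs, the mobile carrier that also triggers apoptosis once released, stood at 4259, 4139, 3908 and 3814. Cyc1 was thus 1.54-fold and Cycs 0.972-fold its level without MNU, although the proteins work next to each other. Cycs has processed pseudogenes, and no source used here says how reads shared with them were counted.

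Complex IV, cytochrome c oxidase, showed the widest spread. Of its 12 general subunits 11 were higher with MNU in wild type (median 0.25). Cox6c, a small membrane subunit, stood at 3254, 6116, 3747 and 2890, 1.88-fold higher in wild type with MNU, and Cox6a1 at 6373, 8905, 6063 and 5864. Cox8a, the general form of subunit 8, was the exception at 5427, 5051, 5590 and 4998. Cox6b2, the testis form of subunit 6b, stood at 247, 491, 296 and 228, or 1.99-fold higher in wild type with MNU. Its general form Cox6b1 stood at 4151, 5136, 4140 and 3786.

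The measured muscle and brown fat forms, Cox7a1 and Cox8b, went the other way. The tissue isoforms Cox4i2 and Cox6a2 were not among the genes measured. Cox7a1 stood at 400 and 12.9 in the wild-type libraries without and with MNU, and at 174 and 232 in the knockout libraries. It was thus 31.0-fold lower with MNU in wild type, whereas the general form Cox7a2 stood at 3262, 3592, 3255 and 2942. Cox7a2l, a relative of both that was counted here with the general subunits, stood at 6600, 7508, 7088 and 6765. Cox8b stood at 802, 31.5, 600 and 508, 25.5-fold lower with MNU in wild type. Both genes were lowest in wild type with MNU and highest in wild type without it.

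Of the brown fat markers, Ucp1, Cidea and Fabp3 were, like these forms, lowest in wild type with MNU, whereas Cpt1b was not. Of 11 markers listed, 4 were measured, and their summed normalised counts were 5969 and 820 in wild type without and with MNU, and 2482 and 2591 in the knockout. Ucp1, the uncoupling protein that defines brown fat, stood at 3415, 73.3, 1224 and 1256 in that order, Cidea at 1225, 95.6, 577 and 682, and the fatty acid carrier Fabp3 at 455, 9.18, 112 and 133. Cpt1b, also a muscle gene, stood at 874, 642, 570 and 519. General adipocyte markers summed to 110200, 19706, 106779 and 37031 over 12 genes, and so differed between the knockout libraries while Ucp1, Cidea and Cox7a1 were within 1.5-fold of each other there. Of 20 striated muscle markers 4 were measured, with sums of 2638, 4280, 2710 and 2773, and the 4 differed in direction. With MNU in wild type, Acta1, skeletal muscle actin, went from 1642 to 1368, Mylpf, a fast-fibre myosin light chain, from 565 to 244 and Des, desmin, from 285 to 216, whereas Tnnt1, slow-fibre troponin T, went from 146 to 2452. No marker of these 3 lists was at 0 except Lep, which was listed at 0 in wild type with MNU. The part of brown fat in the levels of Cox7a1 and Cox8b was not tested.

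**Figure D2:**
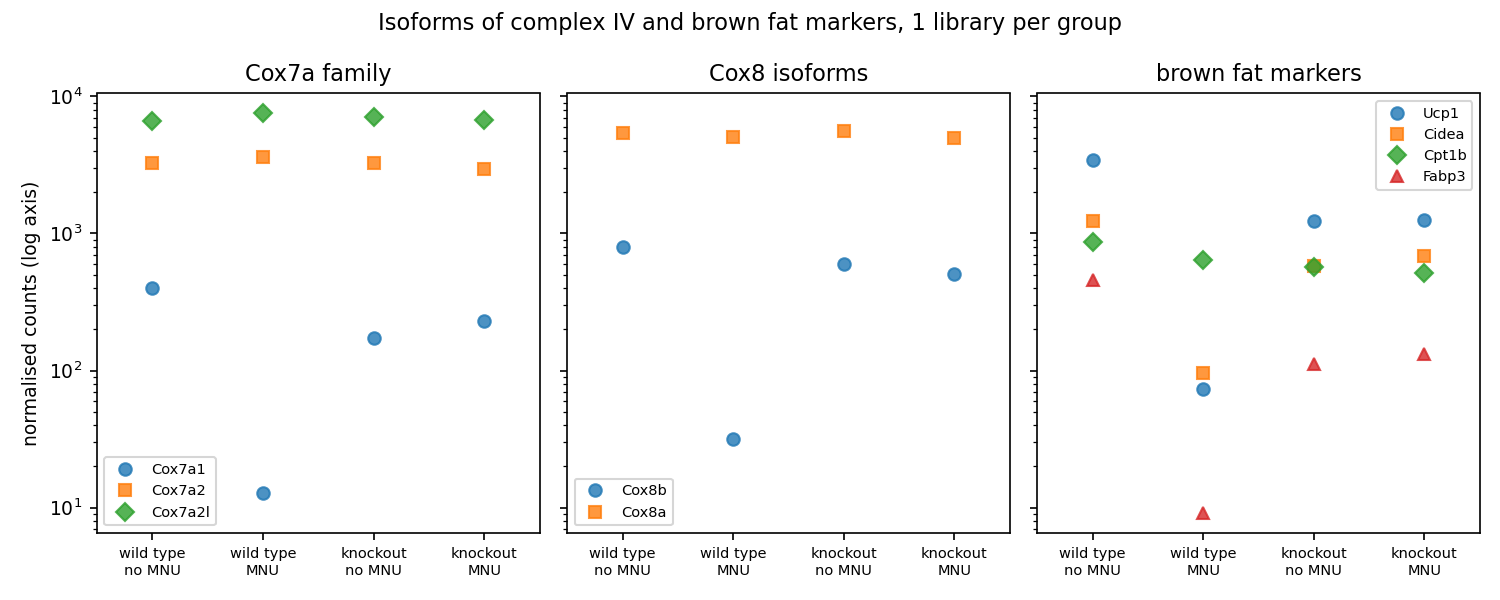
Normalised counts on a log axis in the 4 libraries for the Cox7a family (left), the Cox8 isoforms (middle) and measured brown fat markers (right), 1 point per library. Cox7a1 and Cox8b are at 12.9 and 31.5 in wild type with MNU, where Ucp1, Cidea and Fabp3 are also lowest, whereas Cox7a2, Cox7a2l and Cox8a stay above 2900.

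Complex V, the ATP synthase, had 13 of 15 subunits higher with MNU in wild type (median 0.19). The c-ring genes took 3 of the 4 highest differences. Atp5g2 stood at 3853, 7622, 4461 and 3815 in wild type without and with MNU and knockout without and with MNU, 1.98-fold higher in wild type with MNU. Atp5g1 stood at 1611, 2593, 1747 and 1562, and Atp5g3 at 8651, 13251, 9418 and 7859. All 3 c-ring genes were at least 1.5-fold higher, while 0 of the 5 genes of the catalytic F1 head were. Atp5l, subunit g of the membrane part, stood at 2867, 4435, 3170 and 2815. In the F1 head, Atp5b, the catalytic beta subunit, stood at 40758, 51885, 38943 and 35364, and Atp5d, the delta subunit of the central stalk, at 5181, 4441, 4837 and 4963. Atp5d was the lowest of the complex, followed by Atp5h of the peripheral stalk at 3762, 3542, 3592 and 3438.

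Summed over the structural subunits, the normalised counts were 1.14-fold higher with MNU in wild type for complex I (81208 against 92520), 0.994-fold for complex II, 1.18-fold for complex III (36557 against 43006), 1.21-fold for complex IV (55832 against 67474) and 1.25-fold for complex V (124928 against 155965). The order from complex II to complex V is a description of 2 libraries.

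The 13 assembly factors were divided, with 6 higher and 7 lower (median -0.09). Cox10, which makes the haem O precursor of the haem A in complex IV, stood at 908, 1559, 883 and 906. Ndufaf4, an assembly factor of complex I, stood at 686, 1163, 764 and 687. Both lay far above the other 3 libraries in wild type with MNU, by 1.72-fold and 1.69-fold over wild type without. Ndufaf3, which works together with Ndufaf4, stood at 715, 494, 638 and 717, and was lower there. Cox17, the copper chaperone of complex IV, stood at 1343, 1055, 1264 and 1330, also lowest in wild type with MNU. Cox4nb stood at 1944, 2274, 1914 and 1859.

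**Figure D3:**
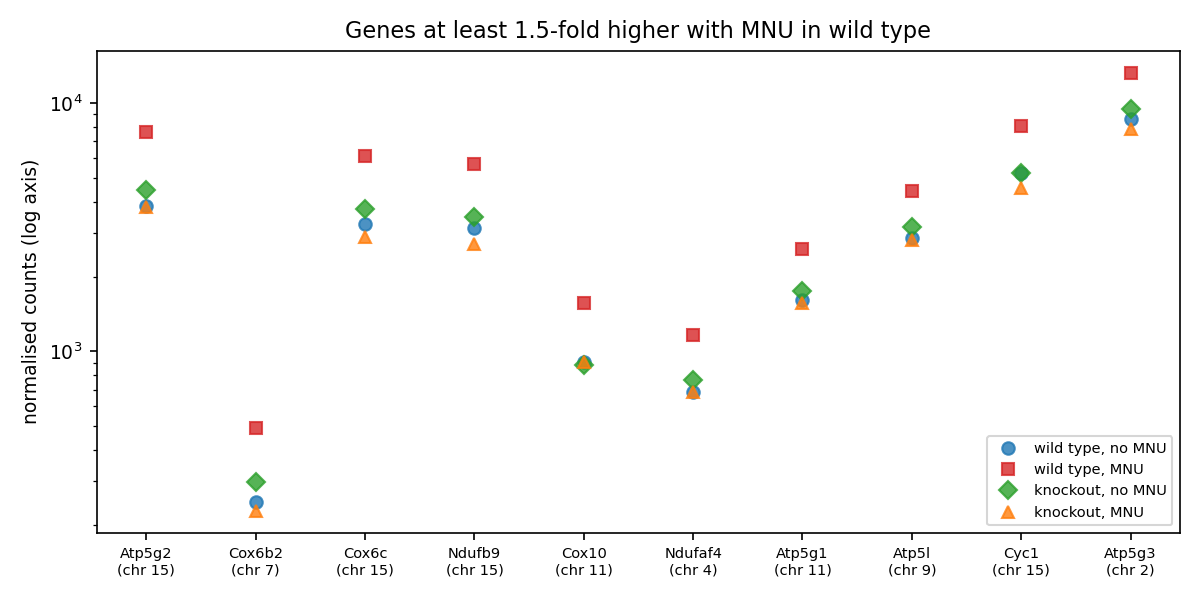
Normalised counts on a log axis of the 10 genes at least 1.5-fold higher with MNU in wild type, with the chromosome of each (chr) and 1 symbol per library. In each gene the square of wild type with MNU lies above the other 3 libraries, and in all but Cyc1 and Cox10 the knockout without MNU lies next.

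Several of the genes with the highest differences lay on 1 chromosome. Of the 10 genes at least 1.5-fold higher with MNU in wild type, Atp5g2, Cox6c, Ndufb9 and Cyc1 lie on chromosome 15 in the RefSeq annotation of GRCm38.p6, used here for chromosome names alone. The remaining gene of the set on that chromosome, Ndufa6, an accessory subunit of complex I, stood at 2122, 2659, 2288 and 2067. The 5 genes had a median log2 difference of 0.87, and the 89 others one of 0.15. The other 440 genes of chromosome 15 had a median of 0.40, whereas the medians of the 19 other chromosomes ran from -0.10 to 0.16. On chromosome 15, 40.7% of all genes were at least 1.5-fold higher. In the knockout with MNU, against wild type without MNU, the chromosome 15 median was 0.00, and the 5 genes had one of -0.17. Gain of chromosome 15, which carries Myc, is a known event of mouse T-cell lymphomas. DNA copy number was not measured, and its part in these values was not tested.

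**Figure D4:**
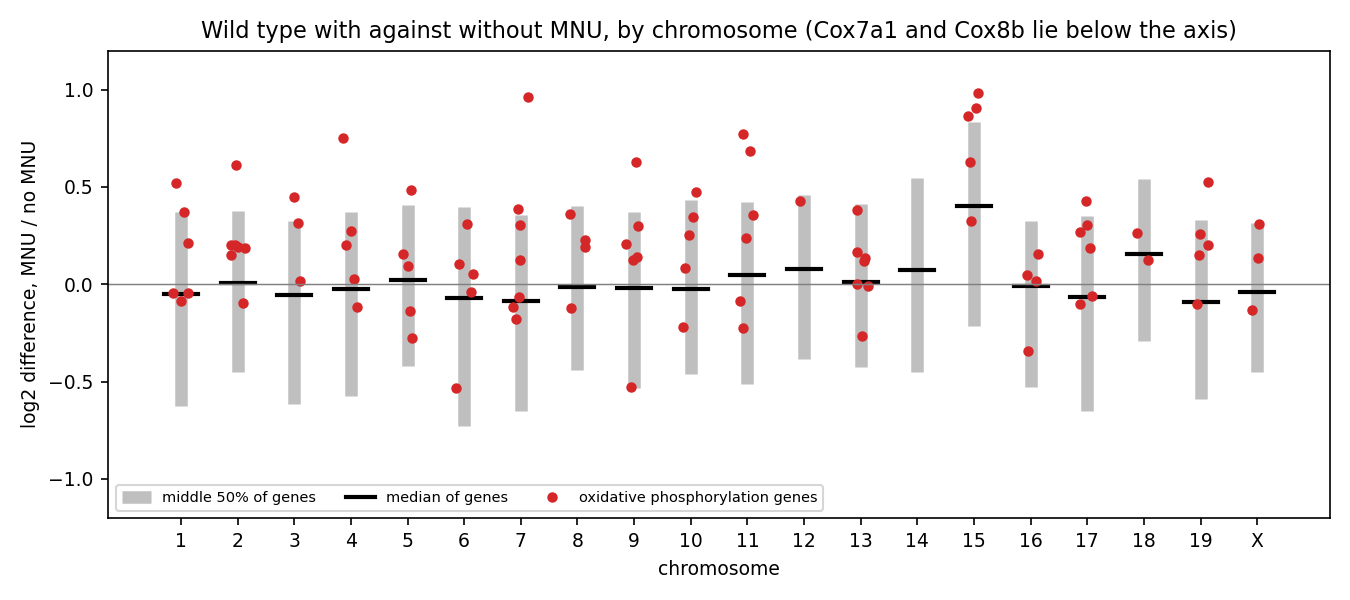
Log2 difference with MNU against without in wild type by chromosome: grey bars hold the middle 50% of all genes on a chromosome, black lines their median and red points the oxidative phosphorylation genes. Chromosome 15 has the highest median, 0.40, and all of its 5 red points are above 0.3; Cox7a1 and Cox8b, on chromosome 7, lie below the axis.

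In knockout mice the same genes differed little with MNU. None of the 94 reached 1.5-fold in either direction (1.45% of all genes higher and 5.73% lower), nor 2-fold (0.331% and 2.95%). The direction leaned down, with 75 genes lower and 19 higher, where 47.1% of all genes were lower and 52.9% higher, and a median log2 difference of -0.09 against 0.01 for all genes. Complex IV had the lowest median, -0.15, with 14 of 15 lower, and the values of single genes ran from -0.37 (Cox6c and Cox6b2) to 0.39 (Cox7a1). With the 15.4% share of the wild-type MNU profile subtracted from the knockout library without MNU, 69 genes were lower, at a median of -0.04, against 0.04 and 38.9% lower for all genes. That subtraction brought Atp5g2 there from 4461 to 3886, near its 3853 in wild type, and Ndufb9 from 3476 to 3071.

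Between the genotypes without MNU the genes were nearly level. Of the 94, 60 were lower and 34 higher in the knockout, where 50.1% of all genes were lower and 49.9% higher, with a median of -0.02. With the share subtracted 71 were lower (57.3% of all genes), at a median of -0.07 against -0.03 over all genes. At 2-fold 0 genes were higher (2.59%) and 1 was lower (0.359%), Cox7a1, at 400 against 174 (log2 difference -1.15). With the share subtracted its level in knockout was 204, a log2 difference of -0.94. At 1.5-fold no gene was added in either direction (5.71% of all genes higher and 1.49% lower). The medians of complexes I to V lay between -0.04 and -0.00. Ucp1 also was lower in knockout, at 3415 against 1224, and the part of brown fat here was not tested.

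With MNU in both, the knockout thymus had lower levels than the wild-type thymus for most of these genes. This comparison shares the wild-type MNU library with the first. Of the 94 genes 79 were lower and 15 higher, where 49.4% of all genes were lower and 50.6% higher, and the median log2 difference was -0.29 against 0.01. At 2-fold 3 were lower (7.37%), Cox6c (2.12-fold), Ndufb9 (2.11-fold) and Cox6b2 (2.15-fold), and 2 were higher (15%), Cox7a1 (18.0-fold) and Cox8b (16.1-fold). At 1.5-fold 16 were lower (17.1%) and 2 higher (23.5%). Every subunit of complex III was lower (9 of 9), as were all 12 general subunits of complex IV and all 7 core subunits of complex I. Complex sums were 0.803-fold for complex I, 0.935-fold for complex II, 0.783-fold for complex III, 0.751-fold for complex IV and 0.729-fold for complex V. Ndufc2 of complex I stood at 2883 in wild type with MNU and 1709 in knockout with MNU. Ndufa10 stood at 4131 and 2505.

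Set against wild type without MNU, the knockout with MNU was lower by a small amount in nearly all of them. Of the 94 genes 82 were lower and 12 higher (49.4% and 50.6% of all genes), with a median log2 difference of -0.12 against 0.00. At 2-fold 0 genes differed (1.57% of all genes higher, 1.11% lower), and at 1.5-fold 2 were lower (2.83%), Cox7a1 and Cox8b, and 0 higher (4.09%). The medians were -0.13 for complex I (33 of 36 lower), -0.10 for complex II (4 of 4), -0.17 for complex III (9 of 9), -0.15 for complex IV (14 of 15) and -0.11 for complex V (13 of 15). For 65 of the 94 genes the knockout with MNU was the lowest of the 4 libraries, as it was for 21.7% of all genes. Wild type with MNU was the highest library for 65 of the 94 as well, and for 44.4% of all genes. Adipocyte markers were also lower in the knockout with MNU (37031 against 110200 summed) and B cell markers higher (36469 against 12469), and their part was not tested.

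The difference between the MNU changes of the genotypes, knockout minus wild type, had a median of -0.25 over the 94 genes, against 0.03 over all genes. It was negative for 72 genes, and positive for 22, where 48.3% of all genes were negative and 51.7% positive. At 2-fold 4 genes were lower (9.53%), Cox6b2, Cox6c, Ndufb9 and Atp5g2, and 2 higher (15.8%), Cox7a1 and Cox8b. At 1.5-fold 17 were lower (20.1%) and 4 higher (25.3%). With the share of the wild-type MNU profile subtracted from the knockout library without MNU, the median was -0.21, and the counts at 2-fold were again 4 lower and 2 higher. The 4 libraries give no measure of error for this difference.

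Levels of different genes were compared per kilobase of coding sequence in wild type without MNU, with lengths from GENCODE M21. The longest coding sequence of each gene was used, 1404 bases for Ndufv3. A gene read mostly from a shorter form is thus understated. Coding lengths also ignore untranslated parts, so they overstate genes with long ones. In complex I the values ran from 1761 for Ndufv3 to 9284 normalised counts per coding kilobase for Ndufa1, an X-linked subunit. Complex II ran from 5297 for Sdhb to 8262 for Sdhd, and complex III from 4770 for Uqcrc1 to 18369 for Uqcrh. Complex IV ran from 791 for the testis form Cox6b2 to 26218 for Cox8a, with Cox7a1 at 1497. Complex V ran from 3949 for Atp5g1 to 25683 for Atp5b. Per kilobase of the whole transcript, Uqcrh (8966), Cox6b2 (631) and Atp5b (21272) kept these places, and the other extremes named did not.

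Other genes of mitochondrial energy metabolism did not all follow. With MNU in wild type, the 14 citric acid cycle genes had a median log2 difference of -0.21, with 10 lower. Idh3b, a subunit of isocitrate dehydrogenase, stood at 5252 without and 2978 with MNU, Ogdh, of the oxoglutarate dehydrogenase complex, at 10982 and 6844, and Suclg2, a succinyl-CoA ligase subunit, at 1134 and 1979. Of 7 enzymes that deliver electrons to ubiquinone by other routes 6 were lower (median -0.46). Etfa, of the electron transfer flavoprotein of fat oxidation, stood at 3230 and 1633, and Gpd2, the glycerol phosphate shuttle enzyme, at 2986 and 1747. Protein import and chaperone genes had a median of 0.38 with 16 of 20 higher, among them the import receptor Tomm22 (3025 and 5993) and the channel gene Timm23 (2537 and 4842).

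Of 17 measured assembly factors outside the symbol rule, 11 were higher (median 0.10). Sco2, a copper chaperone of complex IV, stood at 907 and 2022, the only 1 of them beyond 2-fold. Tomm22 and Sco2 also lie on chromosome 15. Regulators of mitochondrial gene expression had a median of 0.20, with 12 of 15 higher. Tfam, which packages and transcribes mitochondrial DNA, stood at 2448 and 4201, Gabpb1 at 2339 and 3356, Nrf1 at 3161 and 3473 and Myc at 2654 and 3303. Among carriers, the ADP/ATP exchanger gene Slc25a5 stood at 14907 and 22532 and its heart and muscle form Slc25a4 at 6206 and 4081, with a list median of -0.03. Coenzyme Q genes had a median of -0.01, and Adck3 was lower (1501 and 411). The 75 mitochondrial ribosomal protein genes, a list taken after the values were seen, had a median of 0.22 with 58 higher.

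In the knockout with MNU against wild type without MNU, all 14 citric acid cycle genes were lower (median -0.17), as were 6 of the 7 other ubiquinone-reducing enzymes (median -0.33). The mitochondrial ribosomal protein genes had a median of -0.03 in that comparison, with 50 of 75 lower, and import genes one of -0.03.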

How the data were processed

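Thymus RNA of 4 groups, 1 library each, was made into TruSeq libraries, per the labels' protocols. The submitters' processing notes list TopHat2 2.0.8b, edgeR and mm9, with no word on what each did. Neither the counter, annotation and gene filter nor the method of normalisation is given in the sources used here. Each value deposited by the authors is a signal (normalised count) per gene. Sums per library were 33288000 and 34836257 in wild type without and with MNU, and 32911362 and 33230818 in knockout. The values are no longer whole reads, so the depth in reads is unknown and no counting interval was computed.

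The log2 difference of value plus 10 was taken for the 10587 genes with a mean of at least 10, and counts at 2-fold and 1.5-fold were set beside those of all genes. A fold of 1 gene is the plain ratio of its values, without the added 10. The members, lists, thresholds and the rule for named genes (every gene beyond 2-fold, the 2 highest and 2 lowest of each complex, extremes per coding kilobase, isoform families, Cycs, Cyc1 and all Sdh genes) were chosen with earlier results of these data known. Other genes named with values, among them Ndufc2, Ndufa10, Ndufa6, Ndufaf3, Cox17 and Cox6a1, and the view by chromosome, were chosen after their values were seen. All 94 symbols matched RefSeq names. Scripts ran in Python 3.11.15 with pandas 2.3.3 and numpy 2.4.6. A test on simulated data covered only the 2-fold calls with MNU in wild type, with counting noise alone. Alternatives covered the pseudocount, filter, scaling, threshold and members, and a subtraction of the wild-type MNU profile from the knockout library without MNU.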

Additional observations from a re-analysis of the deposited data

Results flagged for a closer look

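The log2 change with MNU went in opposite directions in wild type and knockout for the median of the 94 genes and of each complex, and this difference was not tested, since each group had 1 library. Knockout minus wild type, the median difference was -0.25 over all 94, -0.22 for complex I, -0.14 for complex II, -0.22 for complex III, -0.29 for complex IV and -0.33 for complex V. The median of complex II is over 4 genes, of which 2 were higher and 2 lower with MNU in wild type. Its sum did not differ in direction, with a log2 ratio of -0.01 in wild type and -0.05 in knockout. Among single genes with a difference of at least 1, the directions were opposite in Atp5g2 (-1.21), Cox6b2 (-1.33), Cox6c (-1.28) and Ndufb9 (-1.23), higher with MNU in wild type and lower in knockout. With the share of the wild-type MNU profile subtracted from the knockout library without MNU, the change in knockout was -0.03 for Atp5g2, -0.19 for Cox6b2, -0.20 for Cox6c and -0.19 for Ndufb9, and the median difference over all 94 was -0.21. Cox7a1 had the reverse pattern, with a difference of 4.55. Its change in knockout was 0.39, and 0.18 with the share subtracted.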

How the results depend on the processing

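Of 226 alternative values, 207 were labelled the same (same direction, medians and log2 ratios within 0.1, counts within 1.5 times), 18 moved and 1 reversed. Some could not differ: all 94 genes passed each filter tried, and a count of 0 at 2-fold stays 0 at 4-fold. For small medians the limit of 0.1 is wide. With MNU in knockout the median went from -0.09 to -0.04 with the share subtracted. Between genotypes without MNU it went from -0.02 to -0.12 with the knockout with MNU in place of the one without. Without the tissue isoforms, 0 genes were 2-fold lower with MNU in wild type, 0 lower in the knockout without MNU, 0 higher in the knockout with MNU against wild type with MNU, and 0 higher in the difference of MNU changes. At 1.5-fold in place of 2-fold, 10 genes were higher with MNU in wild type, 16 lower in the knockout with MNU against wild type with MNU, 2 lower against wild type without MNU, and 4 higher and 17 lower in the difference of MNU changes. At 4-fold 0 genes were lower in the knockout without MNU, with MNU or in that difference. Cox7a1, the gene 2-fold lower in the knockout without MNU, was no longer so (0 genes) with the wild-type MNU share subtracted or with the knockout with MNU in place of that library. Without the genes on chromosome 15, an alternative chosen after seeing the data, 1 gene was lower in the knockout with MNU against wild type with MNU and 1 in the difference of MNU changes. Without Sdha, the log2 ratio of the complex II sum with MNU in wild type reversed from -0.01 to 0.19, and that of knockout against wild type with MNU moved to -0.27. The YY1 share was 4.65% before the start alone. Scaling moved the median of all genes by at most 0.034 (log2). No paired analysis was possible because each group had 1 library and the labels carry no replicate number.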
